A study of Glycine max with 12 samples.

Results

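Roots of the soybean (Glycine max) line labelled OX were compared with wild-type (WT) roots grown without aluminium (CK, 0 µM AlCl3) by RNA-seq. The comparison was defined by the labels: 3 OX_CK libraries against 3 WT_CK libraries, 6 of the 12 libraries of the study. The other 6 are 3 OX_Al and 3 WT_Al libraries from roots given 50 µM AlCl3, and they serve here to see which differences between the lines were met again. They were also part of the fit, so they share in the estimate of the spread behind each CK call. The labels do not expand OX, name the gene or construct behind it, give the variety, the age of the plants or the length of treatment, or say whether OX is 1 transformed line. Whether the 3 libraries of a group stand for separate plants is not stated either, so a p-value here speaks of library-to-library spread, some of which may be technical.

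The study sampled roots of both lines with and without AlCl3. In acid soils soluble aluminium stops root growth, and plants that tolerate it commonly release organic acids from the root tip or alter their cell walls. Some genes of aluminium tolerance are held at a basal level before any aluminium arrives. The unstressed roots of the lines are thus the baseline on which a response is built. Soybean is an ancient polyploid, and many of its genes have a near-identical copy elsewhere in the genome.

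The authors deposited estimated counts per gene, and these totalled 15923413 to 18399566 per CK library. The file gives identifiers without names, and none of them matched the reference gene table, so no function is given for any gene and the root markers could not be checked. A Glyma identifier holds the chromosome and the order of the gene along it, as in Glyma.16G170900 on chromosome 16. Identifiers that begin with MSTRG, the default prefix of merged StringTie assemblies, are loci without a Glyma identifier. Levels are given as CPM (counts scaled to a common library total) after scaling of the libraries by TMM, a trimmed-mean method, and differences as log2 fold changes of OX over WT. A gene was called when its adjusted p was under 0.05 in edgeR's quasi-likelihood test with Benjamini-Hochberg adjustment over all 37170 genes tested, and every adjusted p below is from that test.

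The line and the replicate number both separated the 6 CK libraries. In log2 CPM, 42.8% of their variance lay on the first principal component. On it the OX_CK libraries lay at 38.5, 96.8 and 37.2, and the WT_CK libraries at -52.8, -54.8 and -65.0. The second component took 34.4% and ran with the replicate number: OX_CK replicates 1, 2 and 3 lay at 33.9, 11.7 and -64.2, and WT_CK replicates 1, 2 and 3 at 73.2, 25.8 and -80.3. Replicate 3 thus stood apart in both lines. Between replicate 3 and replicate 1, 2020 genes differed by at least 1 on the log2 scale in both OX_CK and WT_CK, and 93.4% of them moved the same way in both lines. The 1886 genes that moved together were called between the lines in 5.3% of cases, against 4.43% of all genes tested. As the root mean square difference in log2 CPM, OX_CK libraries were 0.559 to 0.661 apart, WT_CK libraries 0.488 to 0.844, and a library of one line was 0.63 to 0.984 from a library of the other.

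**Figure D1:**
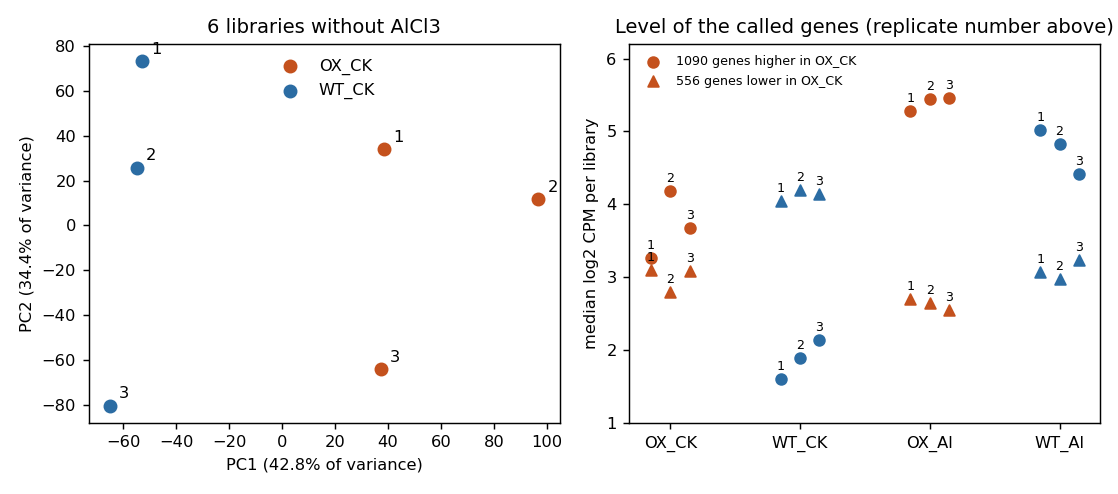
Left: the 6 libraries without AlCl3 on the first and second principal components of log2 CPM (arbitrary units), with the replicate number beside each point; OX_CK lies to the right of WT_CK, and both replicate 3 libraries lie at the bottom. Right: for each of the 12 libraries, the median log2 CPM of the genes called higher (circles) and lower (triangles) in OX_CK; the circles of OX_CK lie above those of WT_CK and below those of both Al groups.

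Without AlCl3, 1090 genes were higher in OX roots, 2.93% of those tested, and 556 were lower, 1.5% of those tested. Among the called genes the rises were larger than the falls, though these sizes depend on which genes passed the test. The median log2 fold change of the higher genes was 1.91, with the middle 50% between 1.31 and 2.73, and that of the lower genes was -1.17, with the middle 50% between -1.82 and -0.82. Among the higher genes 514 differed by at least 2 on the log2 scale and 117 by at least 4, and among the lower genes 115 and 19. Over all tested genes the median was 0, and the lower and upper deciles were -0.58 and 0.54. Setting genes without counts in one line at their lower bound left the medians of the called genes at 1.91 and -1.17. In 1068 of the higher genes all 3 OX_CK libraries lay above all 3 WT_CK libraries, and in 555 of the lower genes all lay below. Such a clean split was also seen in 8.15% and 9.35% of all tested genes, so it alone did not make a call. When only the OX_CK and WT_CK libraries were fitted, 342 genes were higher and 173 lower. Adding the replicate number as a block to that fit gave 1606 higher and 1263 lower. With the replicate number as a block in the 12-library fit, 1158 genes were higher and 904 lower. The share of calls that were higher in OX was 66.2% in the main fit, and 56.2% with the block in the 12-library fit. The higher genes were 583 without OX_CK replicate 2, 651 without WT_CK replicate 1 and 533 without WT_CK replicate 2, and the lower genes were 156 without OX_CK replicate 2 and 190 without WT_CK replicate 2.

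**Figure D2:**
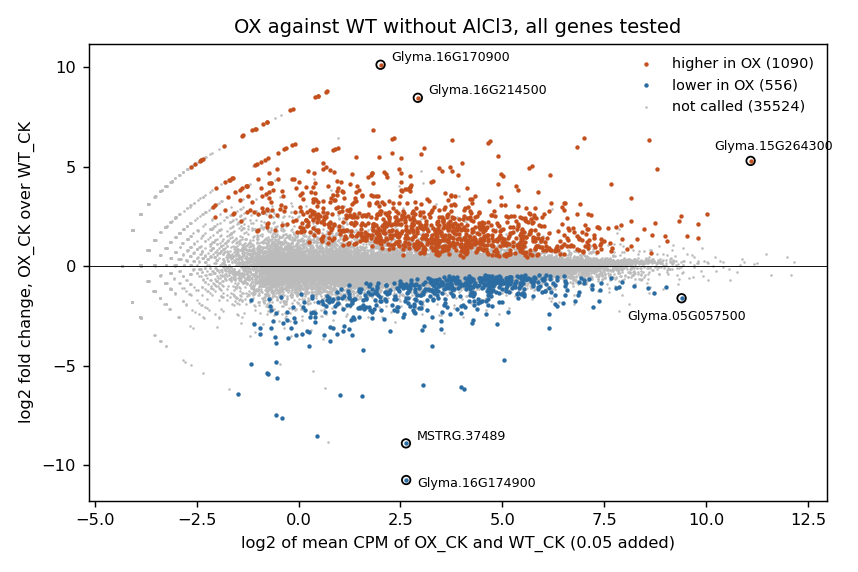
Log2 fold change of OX_CK over WT_CK (y) against the log2 mean CPM of both groups (x) for each tested gene, coloured by call; the genes described in the text are circled. The called genes lie on both sides of 0 over the whole range of levels, and more of them lie above it.

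The size of the difference was graded among the OX libraries. The median log2 CPM of the 1090 higher genes was 3.26, 4.18 and 3.68 in OX_CK replicates 1, 2 and 3, against 1.60, 1.89 and 2.14 in WT_CK replicates 1, 2 and 3. OX_CK replicate 2 was the highest OX_CK library for 69.7% of these genes, and OX_CK replicate 1 the lowest for 70.2%. Among the WT_CK libraries replicate 3 was the highest for 57.9%. The within-group SD of log2 CPM had a median over these genes of 0.529 in OX_CK and 0.345 in WT_CK, while over all tested genes it was 0.271 in OX_CK and 0.291 in WT_CK. The 556 lower genes varied less, with median SDs of 0.256 in OX_CK and 0.233 in WT_CK. Their median log2 CPM was 3.10, 2.80 and 3.08 in the OX_CK libraries, against 4.05, 4.20 and 4.14 in the WT_CK libraries. These genes were chosen for their difference between the groups, so the medians are a description.

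The share of all counts that the called genes took shows the scale of the difference; its direction is fixed by how they were chosen. The higher genes took 4.20%, 7.01% and 5.79% of all counts in OX_CK replicates 1, 2 and 3, against 1.48%, 1.72% and 1.97% in WT_CK replicates 1, 2 and 3. The lower genes took 1.08%, 0.876% and 1.10% in OX_CK, against 2.07%, 2.32% and 2.33% in WT_CK. Few genes carried most of this: 39 of the 1090 accounted for 50% of the summed gain in CPM, and 1 gene, Glyma.15G264300, for 10.7%. Of the summed loss, 49 of the 556 lower genes accounted for 50%, and Glyma.05G057500 for 6.25%.

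Calls were found at every level of expression. Of the 1712 genes with a mean over 100 CPM in the higher line, 5.9% were higher in OX and 2.22% lower. From 10 to 100 CPM these shares were 2.94% and 1.84% of 18175 genes, from 1 to 10 CPM 2.88% and 1.27% of 13738 genes, and under 1 CPM 1.66% and 0.254% of 3545 genes. The median log2 fold change of the higher genes was 1.55, 1.57 and 2.29 in the first 3 of these classes, and that of the lower genes -1.10, -0.93 and -1.75. The standard error (SE) of the log2 fold change had a median of 0.21, 0.17, 0.31 and 0.63 from the highest class to the lowest, so small differences were not detectable among weakly expressed genes. Of the 35524 genes not called, 23882 (67.2%) had a 95% interval that lay wholly within 1 on the log2 scale, while 2199 had an estimate of 1 or more in size and did not pass the test.

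The largest rises and falls among called genes with at least 5 CPM in the higher line were near-complete switches. Glyma.16G170900 had 4.23, 5.58 and 14.1 CPM in OX_CK replicates 1, 2 and 3, and 0 counts in the 3 WT_CK libraries. Replicate 3 was well above the other two OX libraries, and the groups did not overlap. Against a floor of 3 counts over the group it was at least 150-fold higher in OX_CK (adjusted p = 0.00263). Glyma.16G214500 had 11.5, 19.0 and 14.6 CPM in the OX_CK libraries, against 0, 0 and 0.103 CPM in the WT_CK libraries. Its 2 WT_CK counts came from replicate 3, and the OX_CK to WT_CK ratio was 422, and its counting interval ran between 116 and 3490 (adjusted p = 6.64e-06). Both genes are on chromosome 16 and have values that are not whole, so their reads may have been divided with similar copies.

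The falls mirrored this. Glyma.16G174900 had 0 counts in the 3 OX_CK libraries, against 12.2, 14.1 and 10.8 CPM in the WT_CK libraries, and was at least 222-fold lower in OX_CK (adjusted p = 2.25e-06). It too has values that are not whole. MSTRG.37489 had 0, 0 and 0.054 CPM in the OX_CK libraries, against 12.6, 13.2 and 11.2 CPM in the WT_CK libraries. It had 1 count over the OX_CK libraries, and the ratio of WT_CK to OX_CK was 663, and its counting interval ran between 119 and 26200 (adjusted p = 5.58e-05). The WT_CK libraries were close together for both, and no library of one line reached the other.

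**Figure D3:**
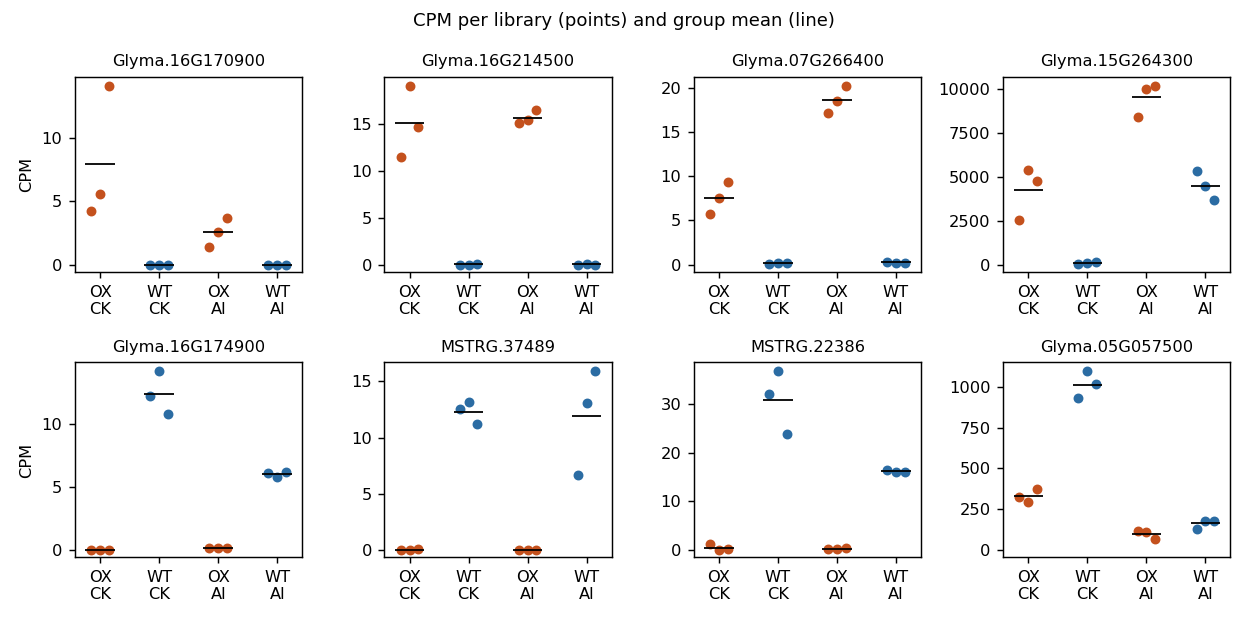
CPM in each library (points, replicates 1 to 3 from left to right) and the group mean (line) for 8 genes, 4 higher in OX_CK (top row) and 4 lower (bottom row), in OX_CK, WT_CK, OX_Al and WT_Al; each panel has its own scale. The first 3 genes of each row keep their difference between the lines in Al, while Glyma.15G264300 and Glyma.05G057500 differ most in CK.

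The most abundant called genes showed smaller ratios on a far higher level. They were chosen after their values were seen. Glyma.15G264300 had 2533, 5410 and 4795 CPM in OX_CK replicates 1, 2 and 3, against 58.8, 95.6 and 173 CPM in WT_CK replicates 1, 2 and 3. The lowest OX_CK library was thus far above the highest WT_CK library, and the log2 fold change was 5.28 ± 0.46 (SE, adjusted p = 7.67e-05). In the Al libraries it had 8440, 10018 and 10190 CPM in OX and 5355, 4501 and 3675 CPM in WT, and the line difference there did not pass the test (log2 fold change 1.08 ± 0.39, adjusted p = 0.153). Glyma.09G203500 had 1731, 2011 and 1660 CPM in the OX_CK libraries, against 253, 353 and 263 CPM in the WT_CK libraries, a log2 fold change of 2.64 ± 0.21 (adjusted p = 4.37e-05). Its OX_Al libraries held 3054, 3069 and 3083 CPM and its WT_Al libraries 2612, 2406 and 2160 CPM (log2 fold change 0.36 ± 0.20, adjusted p = 0.426). For both genes the difference between the lines was smaller in Al than in CK, with an adjusted p for that change of 0.00352 and 0.00223, a call made for 1.63% of all tested genes.

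Among the lower genes, Glyma.05G057500 was the most abundant. It had 326, 297 and 372 CPM in the OX_CK libraries, against 930, 1099 and 1016 CPM in the WT_CK libraries, a log2 fold change of -1.61 ± 0.22 (adjusted p = 0.0015). In Al it had 114, 108 and 69.5 CPM in OX and 130, 179 and 179 CPM in WT, where the difference did not pass the test (adjusted p = 0.0679). By edgeR's test a change of the line difference between CK and Al was not called for this gene (adjusted p = 0.227). The same held for Glyma.01G208200 (adjusted p = 0.188). Glyma.01G208200 had 380, 295 and 342 CPM in the OX_CK libraries, against 570, 825 and 684 CPM in the WT_CK libraries (log2 fold change -1.03 ± 0.20, adjusted p = 0.0107). Its call was lost without OX_CK replicate 2 (adjusted p = 0.0681) and without WT_CK replicate 2 (adjusted p = 0.0578). It was also lost when only the CK groups were fitted (adjusted p = 0.0987). All 4 of these abundant genes have values that are not whole. Of the 4 genes next in abundance, 2 in each direction, Glyma.19G009000 was also called higher in Al (log2 fold change 1.24 ± 0.27, adjusted p = 0.017) and Glyma.17G140000 lower (log2 fold change -0.82 ± 0.21, adjusted p = 0.0351). Glyma.03G109900 and Glyma.11G034000 were not called in Al (adjusted p = 0.939 and 0.318). Their CK calls were lost when only the CK groups were fitted (adjusted p = 0.0739 and 0.0694). The same held without WT_CK replicate 2 (adjusted p = 0.0548 and 0.0661). Glyma.11G034000 also lost its CK call without OX_CK replicate 2 (adjusted p = 0.0878). A change of the line difference between CK and Al was called for none of the 4 genes next in abundance by edgeR's test, with adjusted p-values of 0.125 to 0.491.

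A small set of genes had counts in only 1 of the lines without AlCl3. Taking genes that averaged 1 CPM or more in one line and had 0 counts in the 3 libraries of the other, 12 genes were seen in OX_CK only and 7 in WT_CK only. Each had counts in all 3 libraries of the line that expressed it. The 12 had a median of 2.13 CPM and a highest mean of 7.97 CPM in OX_CK, and the 7 a median of 1.41 CPM and a highest mean of 12.4 CPM in WT_CK. All 12 and 5 of the 7 passed the filter on low counts; 10 of the 12 were called higher and 4 of the 5 lower, beside 2.93% and 1.5% of all genes. These genes were chosen for a difference, so nothing is read from those shares. Of the 12, 5 were called when only the CK groups were fitted, and 6 when the replicate block was added to that fit. At these levels 0 counts in 3 libraries is a low level and not proof of absence. In Al, 5 of the 12 again had no count in WT and at least 1 CPM in OX, while the other 7 had counts in the WT_Al libraries. Among the 5, and chosen after their values were seen, were Glyma.20G041100, with a mean of 3.08 CPM in OX_CK and 2.19 CPM in OX_Al, and Glyma.17G192900, with 1.71 CPM in OX_CK and 4.21 CPM in OX_Al. Of the 7, 3 again had no count in OX_Al, and of these 1, MSTRG.32434, had at least 1 CPM in WT_Al, with a mean of 2.44 CPM. Chromosome 16 held 2 of the 12 and 3 of the 7.

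The OX and WT libraries grown with 50 µM AlCl3 share no library with the CK comparison, and the same contrast was read there a second time. Both contrasts came from the same fit and share its estimate of the spread. The second reading is therefore not fully independent of the first. Most genes kept their direction, and a minority kept their call. Of the 1090 genes higher in OX_CK, 80.5% had a positive log2 fold change of OX_Al over WT_Al, against 43.4% of all tested genes. The test called 322 of them (29.5%) higher in Al and 7 lower, where 4.16% of all genes were called higher. Their median log2 fold change was 0.58 in Al and 1.91 in CK. Their median level was 13.4 CPM in OX_CK and 3.66 CPM in WT_CK, and 42.5 CPM in OX_Al and 27.1 CPM in WT_Al. It was thus higher with AlCl3 in both lines. Of the 556 genes lower in OX_CK, 78.1% had a negative fold change in Al, against 56.6% of all tested genes, and 101 (18.2%) were called lower and 10 higher, where 1.91% of all genes were called lower. Their median log2 fold change was -0.36 in Al and -1.17 in CK. The median level of these lower genes was 7.87 CPM in OX_CK and 17.9 CPM in WT_CK. In OX_Al it was 6.15 CPM and in WT_Al 8.6 CPM. Of all tested genes, 6.07% were called in Al in either direction, 1.14% were called in the same direction in both treatments and 0.866% were higher in both. The genes were chosen on their CK values, so the CK medians are a description. The medians in CK and in Al were not tested against each other. Across all tested genes, which are not independent, the log2 fold changes in CK and in Al correlated with a Pearson r of 0.361 and a Spearman rho of 0.22. With the replicate block 156 genes were lower in both. The genes higher in both were 201 without WT_CK replicate 2, and those lower in both were 51 without OX_CK replicate 2, 52 without WT_CK replicate 2, 65 without WT_Al replicate 2, and 65, 50 and 59 without OX_Al replicates 1, 2 and 3.

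The largest differences were those met most often in Al. Of the 117 higher genes with a log2 fold change of at least 4 in CK, 47.9% were called higher in Al, with a median of 1.73 there. Between 2 and 4 it was 27% of 397 genes, between 1 and 2 it was 25.1% of 439 genes, and under 1 it was 35.8% of 137 genes. Of the 19 lower genes with a fall of at least 4, 57.9% were called lower in Al, with a median of -3.85. Between 2 and 4 it was 21.9% of 96 genes, between 1 and 2 it was 14.3% of 223 genes, and under 1 it was 17% of 218 genes. The share therefore did not climb evenly with size, and it was highest in the class of the largest differences in either direction.

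**Figure D4:**
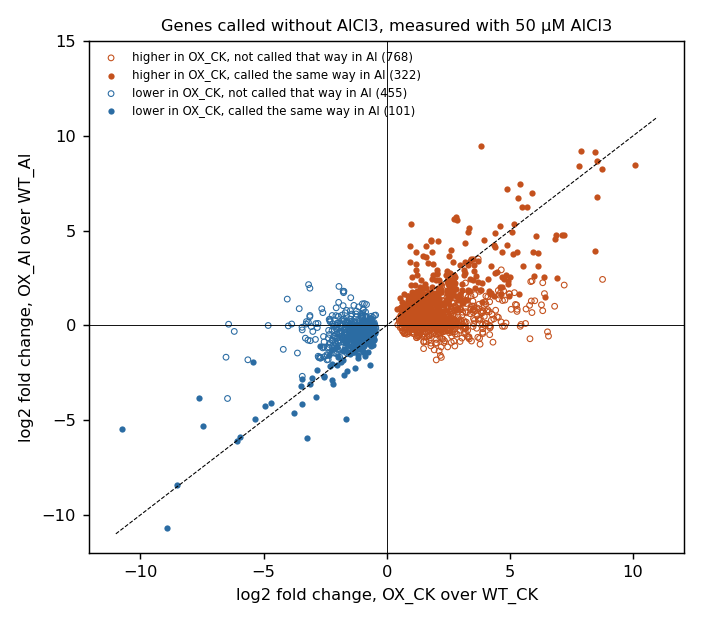
Log2 fold change of OX_Al over WT_Al (y) against that of OX_CK over WT_CK (x) for the 1646 genes called without AlCl3; filled points were also called in the same direction in Al (322 higher, 101 lower), and the dashed line marks equal values. Most open points lie nearer to 0 on the y axis than on the x axis.

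Among genes called the same way in both treatments, with at least 5 CPM in the higher line and no overlap in each, the largest differences were led by Glyma.16G214500 and MSTRG.37489, described above. Glyma.16G214500 had 15.1, 15.4 and 16.5 CPM in OX_Al, against 0, 0.0586 and 0 CPM in WT_Al, close to its levels in CK. MSTRG.37489 had 0 counts in the 3 OX_Al libraries, against 6.71, 13.1 and 15.9 CPM in WT_Al. Next among the higher genes under these conditions came Glyma.07G266400, with 5.75, 7.54 and 9.34 CPM in the OX_CK libraries, against 0.0548, 0.222 and 0.206 CPM in the WT_CK libraries. Its log2 fold change was 5.48 ± 0.34 in CK (adjusted p = 8.6e-06) and 6.26 ± 0.33 in Al (adjusted p = 7.91e-07), and its values are whole in all libraries. Next among the lower ones, MSTRG.22386 had 1.12, 0 and 0.27 CPM in the OX_CK libraries, against 32.1, 36.7 and 23.9 CPM in the WT_CK libraries. Its log2 fold change was -6.08 ± 0.55 in CK (adjusted p = 0.000101) and -6.07 ± 0.61 in Al (adjusted p = 9.1e-05). For none of the 4 was a change of the difference between CK and Al called, with adjusted p-values of 0.695 or more.

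The called genes were spread over all 20 chromosomes. Chromosome 16 had the highest shares in both directions: 58 of its 1352 tested genes (4.29%) were higher in OX_CK and 32 (2.37%) lower. On the other 19 chromosomes the shares ran from 1.84% to 3.88% for higher genes and from 0.992% to 1.97% for lower genes. Of the 90 called genes on chromosome 16, 42 were called in the same direction in Al, 3.11% of those tested there, against 1.14% of all genes and 0.582% to 1.53% on the other chromosomes. The 90 calls on chromosome 16 became 33 when only the CK groups were fitted, 47 without OX_CK replicate 2 and 45 without WT_CK replicate 2. The shares were not tested, and genes on a chromosome are not independent. Of the 207 tested genes on unplaced scaffolds, 1 was higher and 3 were lower. The 641 tested MSTRG loci had 22 higher (3.43%) and 10 lower (1.56%), near the shares of all genes, and 17 of these 32 were called in the same direction in Al, 2.65% of the loci tested.

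**Figure D5:**
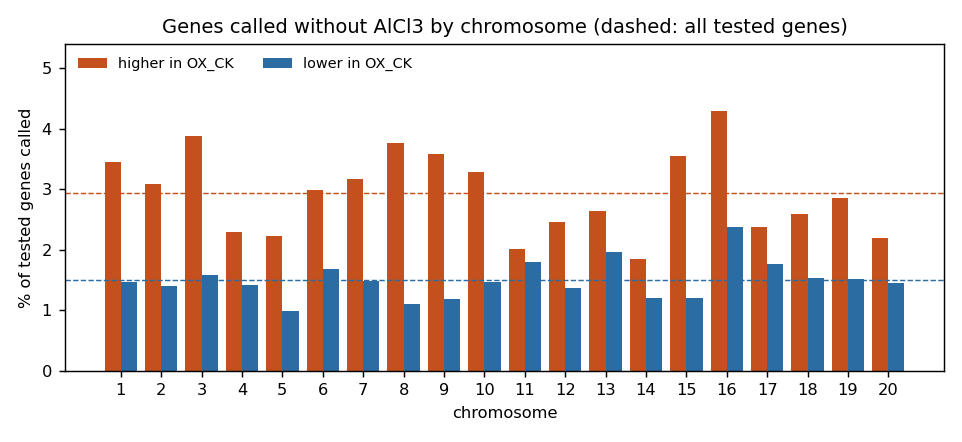
Share of the tested genes on each chromosome that were called higher (left bars) and lower (right bars) in OX_CK; dashed lines mark the shares of all tested genes, 2.93% and 1.5%. Chromosome 16 has the tallest bar in both directions.

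Some neighbouring genes were called as a run, and how many runs the call rate alone would give was not worked out. Runs of at least 3 consecutive tested genes called in the same direction numbered 10 for higher and 2 for lower genes. The longest was a run of 5 higher genes on chromosome 16 from Glyma.16G176600 to Glyma.16G177000, with log2 fold changes of 2.54 to 7.82, and all 5 were also called higher in Al. It lies inside the densest window of 50 tested genes, from Glyma.16G169900 to Glyma.16G178900, where 11 were higher and 4 lower. Of the densest windows of the other chromosomes, those on chromosomes 6 and 8 held the most calls, each with 7 higher and 2 lower genes. The other runs had 3 genes each. One on chromosome 1, from Glyma.01G134600 to Glyma.01G135500, had log2 fold changes of 2.78 to 5.43, and one on chromosome 18, from Glyma.18G265800 to Glyma.18G266000, had 2.02 to 5.23. None of the genes in these last 2 runs was called higher in Al. The runs and windows were picked out by their calls and are a description.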

How the data were processed

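Per the file headers the values are counts; the deposited table holds them unscaled, with decimals in places, so they were treated as estimated counts. The submitters' processing notes name HTSeq 0.6.0, HISAT2 2.1.0, Bowtie2 2.2.3, TopHat2 and CASAVA, with no role for any. The build, annotation and strand setting were not given in the sources used, so reads of overlapping and antisense genes may be mixed. Decimals (tolerance 1e-06) were found in 13.25% of the values and in 43.45% of the tested genes; reads of such genes may have been divided among copies. Counts were rounded, and 8 rows of stray text were left out.

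Genes were filtered with filterByExpr (minimum count 10, minimum total 15), which kept 99.9% of the counts, and the median count of the tested genes in a CK library was 185. Libraries were scaled by TMM. edgeR 4.0.16 (R 4.3.3) fitted all 12 libraries with a mean per group and the robust two-sided quasi-likelihood F-test; the SE was obtained by dividing the size of the log2 fold change by the root of F. limma 3.58.1 (voom) and DESeq2 1.42.0 were alternatives. The principal components used log2 CPM with a prior count of 2. On simulated CK data the test recovered 40% of 100 genes changed by a fold of 2 and 89% of 100 changed by a fold of 4. It had 35575 genes to test and called 9 unchanged ones. The changed genes were drawn from those above a count floor. Every group started from the WT_CK means, and no replicate effect was built in. These rates therefore do not describe weakly expressed genes or data with a replicate effect. Intervals and floors cover counting error only.

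Named genes were the called ones with the 2 largest rises and falls among those with at least 5 CPM and no overlap, and the leading 2 per direction of those called in both treatments (the rule gave 3). Others were chosen after their values were seen. The comparison, rules and lists were chosen with earlier results of these data known. The 52 gene lists rested on gene descriptions, and 0 of the identifiers matched the 59048 genes of the Glycine_max_v4.0 table, so no list was built. Same-numbered OX_CK and WT_CK libraries deviated together from their group means (r = 0.41, 0.12 and 0.58), so the numbers were taken to pair them, on the data alone. For replicate 2 this is in doubt: OX_CK replicate 1 with WT_CK replicate 2 gave 0.19 and OX_CK replicate 2 with WT_CK replicate 1 gave 0.18. In Al the values were 0.033, -0.13 and -0.0032. No 2 libraries agreed within sampling noise (chi-square over degrees of freedom from 8.02 to 174).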

Additional observations from a re-analysis of the deposited data

Results flagged for a closer look

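For 3 of the genes described, the difference between the lines changed between CK and Al by the test of that change. Its adjusted p was 0.0192 for Glyma.16G174900, 0.00352 for Glyma.15G264300 and 0.00223 for Glyma.09G203500 (edgeR's quasi-likelihood test with Benjamini-Hochberg adjustment). Glyma.16G174900 had 0 counts over the OX_CK libraries and 6 counts over the OX_Al libraries, against 686 counts over the WT_CK libraries and 304 counts over the WT_Al libraries. Its call was lost with values rounded down (adjusted p = 0.163). It was also lost when OX_Al replicate 1, 2 or 3 was left out, with an adjusted p of 0.0554, 0.0615 and 0.0527. The same held for OX_CK replicate 2 and for OX_CK replicate 3, with an adjusted p of 0.068 and 0.0542. The calls of Glyma.15G264300 and Glyma.09G203500 held under every alternative run.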

How the results depend on the processing

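Every direction held for the genes named by rule and the most abundant called genes. Of their 339 values under the alternatives run, 321 kept their side of the threshold and 18 lost the call. These values are for the line difference in CK and, for the genes flagged above, also for its change between CK and Al. The genes were chosen among called ones, so this says little about the other calls. At an adjusted p under 0.01, 483 genes were higher and 151 lower in OX_CK, 858 higher and 283 lower in OX_Al, 145 higher and 31 lower in both, and 41 were called on chromosome 16 in CK. With a log2 fold change of at least 1, the lower genes were 338 in CK, 409 in Al and 57 in both. Among whole-valued genes alone, 713 were higher and 316 lower in CK, 926 and 465 in Al, 199 and 56 in both, and 42 were called on chromosome 16. When only the compared groups were fitted, 342 were higher and 173 lower in CK, 2358 higher in Al, 187 and 38 in both, 33 on chromosome 16, and 5 of the 12 genes with counts in OX_CK only. The DESeq2 Wald test gave 1714 higher and 1023 lower in CK, 539 and 186 in both, and 143 on chromosome 16. With the replicate block in the 12-library fit, 904 were lower in CK and 156 lower in both, and 996 of the 1090 higher and 547 of the 556 lower genes were called again. With the replicate block and only the compared groups fitted, 1263 were lower in CK, 509 higher in both, 147 were on chromosome 16, and 6 of the 12 were called. The block moved no other count by over 1.5 times and, in the 12-library fit, ended the call of none of the genes named by rule or most abundant; with it 9 of the 12 genes with counts in OX_CK only were called. Leaving out 1 library gave 533 to 1449 higher and 156 to 518 lower genes in CK, 1010 to 1326 and 362 to 618 in Al, 201 to 404 and 50 to 100 in both, 45 to 97 on chromosome 16, 8 to 10 of the 12 and 4 to 5 of the 7. Without replicate 3 of both CK groups, chosen after seeing the data, 1060 were higher and 402 lower. The cause of these shifts was not tested. A stricter threshold lowers a count by construction, and fewer genes leave fewer to call. Fewer libraries moved the counts both ways. The higher genes in CK rose from 1090 to 1449 without OX_CK replicate 1 and fell to 533 without WT_CK replicate 2. The alternatives for gene lists were not run.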
